A study of Mus musculus with 2 samples.

Results

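The kinesin motor genes of the embryonic mouse midbrain were taken as the protein-coding genes whose symbol is Kif followed by a digit, which gave 39 of the 43346 gene entries measured and of the 21474 protein-coding genes. Of these, 38 encode motors and were placed by textbook role into 12 mitotic, 15 transport, 6 cilium and 5 other kinesins. The 39th, Kif1bp, encodes a kinesin-binding protein that the symbol rule also takes, and it was kept apart from the motors. The samples were 2 libraries of total RNA longer than 200 nt from a single group, the midbrain of healthy B6NCrl mouse embryos at 13.5 days, each from pooled male and female tissue and from 10 ng of RNA with spike-in RNA added. The labels number them as biological replicates 1 and 2, with separate tissue entries but the same donor entry, so the spread between them may be partly technical. With 1 group there is no second tissue, age or treatment, and an exact test over 2 libraries could not pass a threshold of 0.05, so no p-values are given. Values are stated per library, with mean ± SD over n = 2 where both are combined.

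Kinesins are ATP-driven motors that mostly walk toward the growing ends of microtubules. In neurons, transport kinesins carry vesicles, mitochondria and RNA granules along axons and dendrites, often through light chains or adaptor proteins that bind the cargo. In dividing progenitors, mitotic kinesins slide spindle microtubules, move chromosomes, shorten microtubule ends and build the midzone at which the daughter cells separate. A further set works in cilia, where it moves cargo, sets length or controls Hedgehog signalling. Midbrain tissue of this age holds both newborn neurons and dividing progenitors, and in such bulk RNA fewer cells of a type and less RNA per cell cannot be told apart.

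The tissue label was checked against defining markers. The 5 midbrain genes were detected, led by Otx2 with 104.5 TPM in replicate 1 and 117 TPM in replicate 2 and with En2 lowest at 1.60 and 1.72 TPM, while 0 of 4 hindbrain Hox genes and 0 of 6 muscle genes were. TPM (transcript abundance on one common total) is a level scaled for transcript length, and the threshold for detection was a TPM of 1, to be met in each library. All 10 neuron and all 8 progenitor markers were detected, as were the 6 erythroid, 6 endothelial and 6 microglial markers, so the kinesin RNA was measured in a mixture. Replicate 1 held 32151659 reads and replicate 2 held 41915240, of which 110480 and 140127 fell on the 39 kinesin genes. The share of spike-ins in TPM was 5.36% in replicate 1 but 9.39% in replicate 2, which lowers the TPM of all genes slightly in replicate 2.

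Most kinesin genes were transcribed in this tissue. Of the 39 genes, 34 were detected, against 60.2% of protein-coding genes. All 15 transport kinesins were detected, as were 11 of 12 mitotic, 4 of 6 cilium and 3 of 5 other kinesins. The genes below the threshold were Kif2b among the mitotic, Kif27 and Kif19a among the cilium, and Kif12 and Kif28 among the other kinesins. Over complete coding transcripts alone 31 members were detected, since Kif14 (1.03 TPM in replicate 1 and 0.92 TPM in replicate 2), Kif17 (0.36 and 0.10 TPM) and Kif6 (0.38 and 0.72 TPM) then missed the threshold. The median level of the mitotic list was 11.6 TPM in replicate 1 and 11.4 TPM in replicate 2, and that of the transport list 49.5 and 47.5 TPM.

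**Figure D1:**
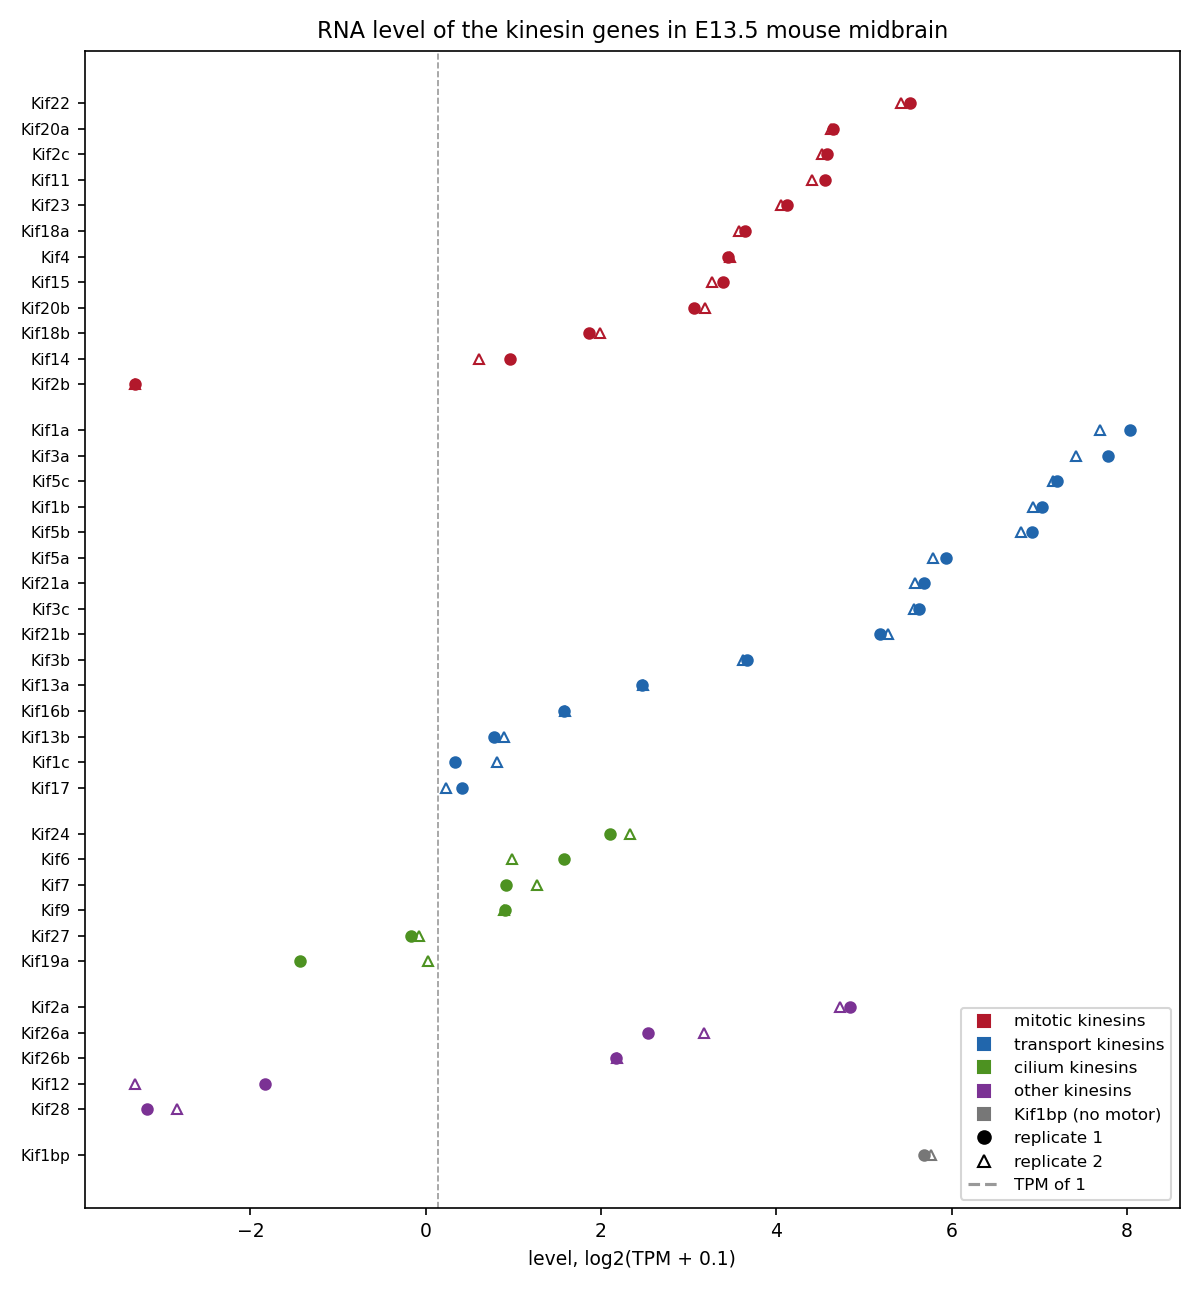
Level of each kinesin gene on the log2(TPM + 0.1) scale, grouped by role and sorted by mean within a role, with a filled circle for replicate 1, a triangle for replicate 2 and a dashed line at a TPM of 1. The mitotic kinesins reach at most 45.9 TPM (Kif22), while 8 of the 15 transport kinesins lie above that in both libraries, and Kif2b lies at 0 in both.

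Among the mitotic kinesins, Kif22 had the highest RNA level, followed by Kif20a, Kif2c and Kif11. Kif22, a chromokinesin that pushes chromosome arms toward the spindle equator (chr7:127027729-127042471), had 45.9 TPM in replicate 1 and 43.0 TPM in replicate 2. Kif20a, which brings the chromosomal passenger complex to the midzone, had 24.9 and 24.5 TPM. Kif2c, which takes apart microtubule ends at centromeres, had 23.8 and 22.9 TPM. Kif11, whose tetramers slide antiparallel microtubules apart and make the spindle bipolar (chr19:37376403-37421859), had 23.5 and 21.1 TPM. Kif2c was above Kif11 within each library, although their ranges over the 2 libraries overlapped, while Kif22 stood clear of all other mitotic kinesins in both libraries.

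The remaining mitotic kinesins followed at lower levels. Kif23, the motor of the centralspindlin complex, had 17.3 TPM in replicate 1 and 16.5 TPM in replicate 2. Kif18a, which damps chromosome oscillations, had 12.4 and 11.8 TPM. Kif4, a chromokinesin that also works with Prc1 at the midzone (chrX:100625737-100727214), had 10.8 and 10.97 TPM. Kif15, which can stand in for Kif11 in spindle assembly, lay at 10.4 and 9.53 TPM, so the replacement motor was at less than the level of Kif11 in both libraries. Kif20b, a cytokinesis motor known from mice to be needed for normal brain size, had 8.25 and 8.99 TPM. Kif18b, which shortens astral microtubules, had 3.53 and 3.86 TPM, and Kif14, a cytokinesis partner of citron kinase, had 1.84 and 1.42 TPM. Kif2b, a relative of Kif2c, had 0 reads in both libraries, where 3 reads would have given 0.0698 TPM in replicate 1 and 0.0523 TPM in replicate 2.

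Genes that work with these motors had a higher median level than the mitotic kinesins, although the lists overlapped in level. All 22 genes of a list of spindle and cytokinesis partners were detected, with a median of 33.4 TPM in replicate 1 and 34.2 TPM in replicate 2. These values, like those of the other partner lists, are gene-level TPM over all transcripts. Levels from complete coding transcripts alone are given for the kinesin genes only. Cdk1, the kinase that drives entry into mitosis, had 121 and 140.5 TPM, and its cyclin Ccnb1 had 106 and 93.2 TPM. Top2a, which untangles chromosomes, had 101 and 91.4 TPM. Racgap1, which forms centralspindlin with Kif23, had 95.8 and 97.4 TPM, and its motor partner was thus the less abundant RNA in both libraries. Prc1, the midzone crosslinker, had 60.9 and 59.3 TPM, and Cit, citron kinase, had 15.2 TPM in both. Anln was the lowest of the list with 6.55 and 6.89 TPM. Cenpe, a centromere kinesin without a number in its symbol, had 11.8 and 10.8 TPM, and the minus-end-directed spindle motor Kifc1 had 2.40 and 2.39 TPM.

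The promoters of the mitotic kinesins are shown because genes needed in G2 and M phase commonly carry a CHR (cell cycle genes homology region), read by DREAM and MuvB complexes, often downstream of CCAAT boxes bound by NF-Y. RefSeq promoters on GRCm38.p6, from 250 bases before to 50 after each annotated start, were matched to 31 of 38 motors, among them 11 of 12 mitotic and 11 of 15 transport kinesins. The RNA values play no part in these matches. The CHR hexamer TTTGAA, searched on both strands, stood in 9 of 11 mitotic and 1 of 11 transport promoter sets, against 17.9% of all 32851 promoters. The hexamer also stood in 1 of 5 cilium kinesins (Kif27) and 1 of 4 other kinesins (Kif26b). In Kif26b it lay 9 bases before the start, with a CCAAT box 73 bases before the start. The only listed Kif27 transcript, Kif27-201, starts at 58354862, outside the window of the Kif27 promoter (chr13:58354898-58355197, minus strand). Within the window from 100 bases before the start, 7 of 11 mitotic and 1 of 11 transport kinesins held the hexamer, against 8.01% of all promoters. The mitotic kinesins without it in the whole window were Kif18a and Kif2b. The matches of Kif4, Kif2c and Kif14 lie in listed promoters that do not hold the start of the gene's leading transcript, as described below.

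The promoter of Kif11, printed like the others 5′ to 3′ on the strand of the gene, has a CCAAT box upstream of a CHR hexamer, both in capitals and both in the opposite orientation:
Kif11 (chr19:37376132-37376431, plus strand): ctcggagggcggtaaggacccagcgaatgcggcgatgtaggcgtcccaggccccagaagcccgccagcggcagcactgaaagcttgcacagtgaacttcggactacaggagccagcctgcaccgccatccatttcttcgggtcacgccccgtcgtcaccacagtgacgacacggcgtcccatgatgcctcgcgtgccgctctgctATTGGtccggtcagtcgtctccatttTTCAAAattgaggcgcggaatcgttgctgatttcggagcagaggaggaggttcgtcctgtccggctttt

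The stretches around the hexamer nearest the start, printed 5′ to 3′ with the hexamer in capitals as TTTGAA or, from the opposite strand, TTCAAA, were as follows for the other mitotic kinesins with a match in the narrower window:
Kif15 (chr9:122951032-122951097, plus strand): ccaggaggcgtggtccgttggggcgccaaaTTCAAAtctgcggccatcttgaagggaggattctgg
Kif22 (chr7:127042402-127042467, minus strand): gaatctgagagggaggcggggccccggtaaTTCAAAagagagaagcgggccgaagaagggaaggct
Kif23 (chr9:61946762-61946827, minus strand): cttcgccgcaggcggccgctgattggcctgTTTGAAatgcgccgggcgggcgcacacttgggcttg
Kif18b (chr11:102925086-102925151, minus strand): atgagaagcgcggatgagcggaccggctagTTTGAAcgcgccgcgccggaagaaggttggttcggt
Kif20b (chr19:34922335-34922400, plus strand): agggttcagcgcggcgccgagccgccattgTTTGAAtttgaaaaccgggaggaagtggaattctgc
Kif4 (chrX:100626054-100626114, plus strand): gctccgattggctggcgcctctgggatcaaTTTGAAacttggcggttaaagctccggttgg

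In these genes the first base of the hexamer stood between 19 bases before the start, in Kif11 and Kif15, and position 20, in Kif4, with the annotated start counted as 1. Kif22 had it 17 bases before the start, Kif23 at position 3, Kif18b at position 4 and Kif20b at position 8, where a second copy follows directly in lower case. The listed Kif4 promoter (chrX:100625815-100626114, plus strand) lies inside the gene. The transcript Kif4-201, with 98.0% of the gene's TPM in replicate 1 and 94.9% in replicate 2, starts at 100625737, before that window. The Kif4 hexamer thus lies downstream of that start, and its match is uncertain to that extent. In Kif2c and Kif14 the only copy lay farther out, 103 and 228 bases before the start. The listed Kif2c promoter (chr4:117178723-117179022, minus strand) lies inside the gene (chr4:117159639-117182639). The transcript Kif2c-201, with 95.9% of the gene's TPM in replicate 1 and 93.5% in replicate 2, starts at 117182639, outside that window. The region before that start was not searched, and the Kif2c match is uncertain to that extent. The listed Kif14 promoter (chr1:136467598-136467897, plus strand) also lies inside the gene (chr1:136466343-136531511). The complete coding transcript Kif14-203 starts at 136467935, outside that window, so the Kif14 match is uncertain too. The second CHR form, TTTAAA, which reads the same on both strands, was present in 2 of 11 mitotic promoters (Kif14 and Kif2c) and 0 of 11 transport promoters, against 13.2% of all promoters. The CCAAT box, also searched on both strands, was found in 7 of 11 mitotic and 3 of 11 transport kinesins, against 37.4% of all promoters. It was found as well in 3 of 5 cilium and 1 of 4 other kinesins, and the mitotic matches include Kif2b, which had 0 reads. No match of one motif overlapped a match of another in the kinesin promoters. These are matches of letters and not measured binding sites, and Kif1a, Kif1b, Kif9 and Kif2a have 2 listed promoters each and thus more chances to match.

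The single transport kinesin with the hexamer was Kif1a, in the downstream of its listed promoters (chr1:93082431-93082730). The full-length transcript Kif1a-204 starts at 93101822 and the fragment Kif1a-206 at 93101834, both outside that window. The stretch is printed for comparison:
Kif1a (chr1:93082489-93082554, minus strand): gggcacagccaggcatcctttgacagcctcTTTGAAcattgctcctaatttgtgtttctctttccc

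The promoter of Kif5c, the transport kinesin with the most reads per length, held none of the 3 motifs:
Kif5c (chr2:49619036-49619335, plus strand): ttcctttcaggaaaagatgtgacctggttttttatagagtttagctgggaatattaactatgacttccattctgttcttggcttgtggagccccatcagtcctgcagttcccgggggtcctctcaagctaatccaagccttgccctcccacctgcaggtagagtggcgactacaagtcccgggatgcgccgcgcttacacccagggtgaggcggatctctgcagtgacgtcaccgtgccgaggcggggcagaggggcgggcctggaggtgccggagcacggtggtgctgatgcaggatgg

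**Figure D2:**
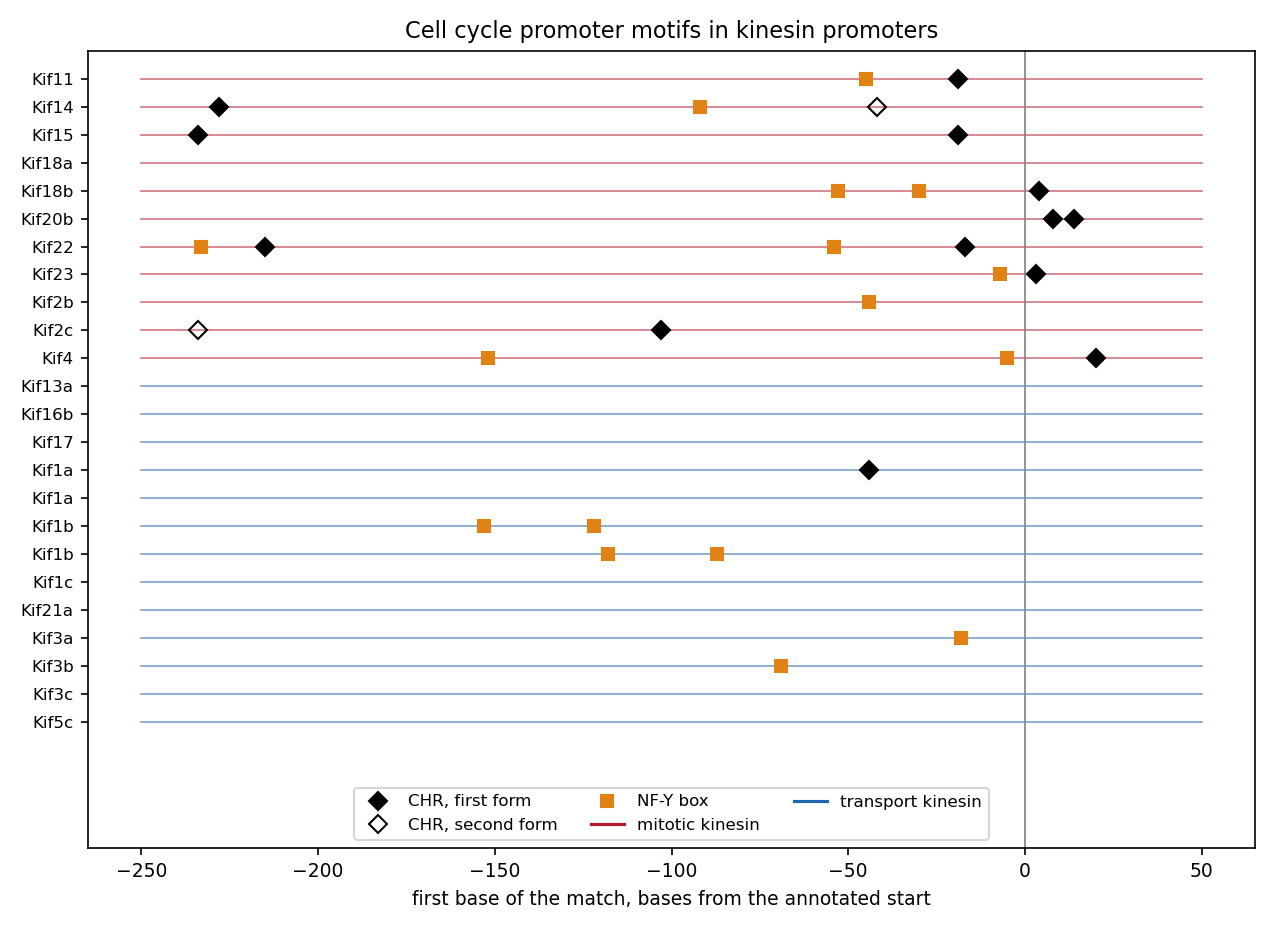
Positions of CHR hexamers (diamonds, filled for TTTGAA and open for TTTAAA) and CCAAT boxes (squares, labelled NF-Y box) in the promoters of the mitotic kinesins, above, and the transport kinesins, below, in bases from the annotated start. Filled diamonds mark 9 of the 11 mitotic kinesins, mostly close to the annotated start, and 1 of the 11 transport kinesins, and a name that appears on more than 1 line has several listed promoters. For Kif4, Kif2c and Kif14 the listed promoter does not hold the start of the leading transcript.

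Mitotic kinesins held the smaller part of the motor RNA, with 13.7% of the summed TPM of the 38 motors in replicate 1 and 14.6% in replicate 2. Transport kinesins held 82.6% and 81.0%. Cilium kinesins took 0.875% and 1.06%, and the other kinesins 2.91% and 3.34%. In reads rather than TPM the mitotic share was 11.4% and 11.5% and the transport share 84.5% and 83.9%.

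The heavy chains of conventional kinesin, which carry cargo through the light chains, were each measured well. Kif5c, known from neurons (chr2:49619298-49774778), had 147 TPM in replicate 1 and 143 TPM in replicate 2. Kif5b, the broadly expressed heavy chain, had 120.5 and 111 TPM, and Kif5a, another neuronal form (chr10:127225696-127263348), had 61.2 and 55.2 TPM. The ranges of the 3 genes did not overlap, and Kif5c exceeded Kif5a by 1.32 ± 0.07 on the log2 scale of TPM + 0.1 (n = 2). Their cargo-binding partner Klc1, a kinesin light chain, stood above each heavy chain with 448 and 427 TPM.

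Kif1a of the kinesin-3 family and Kif3a of the kinesin-2 family had the highest gene-level values, followed by Kif5c. Kif1a, which moves synaptic vesicle precursors and dense core vesicles down axons (chr1:93015464-93101951), had 263 TPM in replicate 1 and 208 TPM in replicate 2, the highest of all members in both libraries. Kif1b, which carries mitochondria in its short form and synaptic vesicle precursors in its long form (chr4:149176319-149307693), had 130.4 and 122 TPM. Kif3a, a kinesin-2 subunit used in axons and in cilia (chr11:53567379-53601967), had 221 and 171 TPM. Kif1a averaged 235 ± 38.7 TPM and Kif3a 196 ± 35 TPM (SD, n = 2 each), and their ranges over the libraries overlapped, although Kif1a was above Kif3a within each library. The SDs of these genes were larger than that of Kif5c, which averaged 145 ± 3.23 TPM.

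The partners of Kif3a differed widely among themselves. Kif3b, the usual second motor of the complex, had 12.6 TPM in replicate 1 and 12.2 TPM in replicate 2, and the neuronal alternative Kif3c had 49.5 and 47.5 TPM. Kifap3, the third subunit that links the motor pair to cargo, had 80.9 and 70.3 TPM. The log2 ratio was 3.96 ± 0.23 for Kif3a over Kif3b and 2.00 ± 0.22 for Kif3a over Kif3c (n = 2 each).

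The other transport kinesins spanned a wide range. Kif21a and Kif21b, kinesin-4 motors that restrain microtubule growth, had 51.2 and 36.1 TPM in replicate 1 and 48.0 and 38.6 TPM in replicate 2. Kif13a, which carries cargo from the trans-Golgi network, had 5.42 TPM in replicate 1 and 5.48 TPM in replicate 2, and its relative Kif13b had 1.61 and 1.75 TPM. Kif16b, an early endosome motor, had 2.88 and 2.91 TPM. Kif1c had 1.16 and 1.66 TPM. Kif17, known from dendrites for carrying NMDA receptor subunits, had 1.23 and 1.07 TPM, the lowest mean of the transport list.

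The mitotic list was lower than the transport list. The median of the mitotic kinesins lay below that of the transport kinesins by a difference of -2.09 in replicate 1 and -2.05 in replicate 2 on the log2(TPM + 0.1) scale, or -2.07 ± 0.03 (SD, n = 2). No mitotic kinesin reached the median of the transport list in either library. The lists overlapped all the same, since 8 of 15 transport kinesins lay above the highest mitotic kinesin and 5 of 15 (Kif13a, Kif13b, Kif16b, Kif17 and Kif1c) lay below the mitotic median in both libraries. With the means of the lists in place of medians the difference was -1.54, and over only the genes that the selection named as examples it was -2.60.

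**Figure D3:**
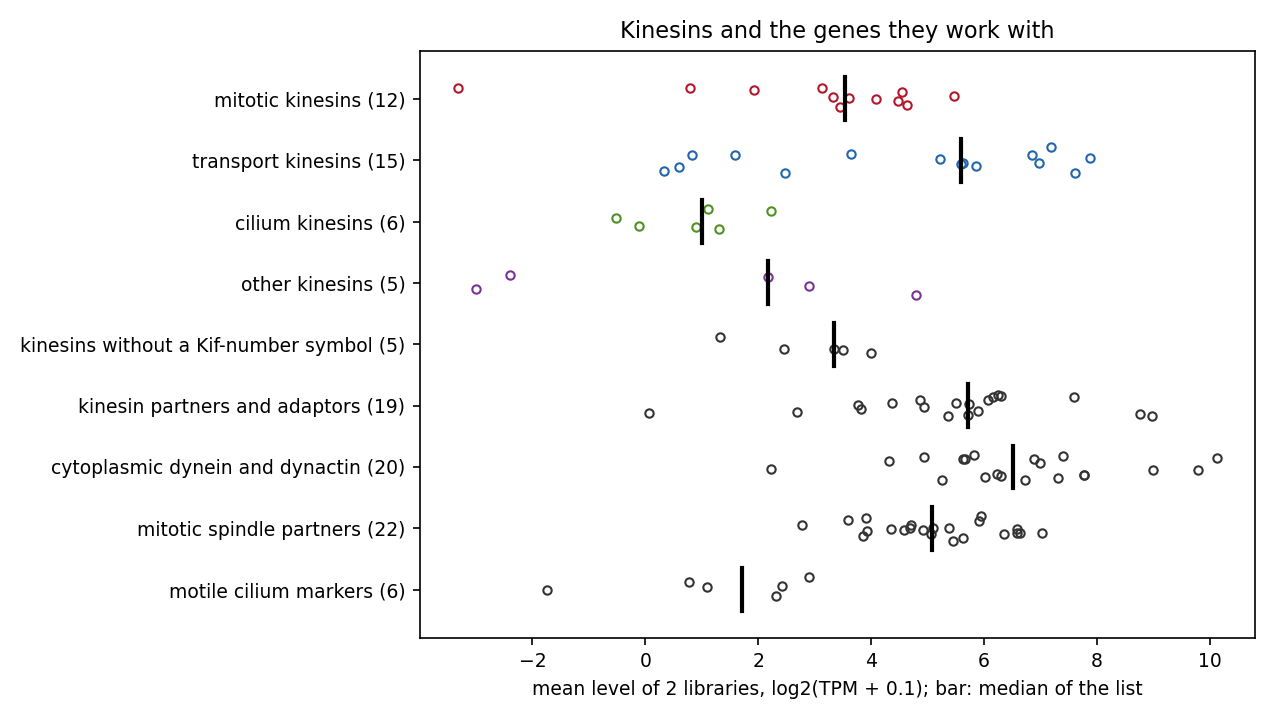
Mean level of each gene over the 2 libraries on the log2(TPM + 0.1) scale, as open circles with a bar at the list median, for the mitotic and transport kinesins, the other kinesin lists and the lists of partner genes. The bar of the mitotic kinesins lies to the left of that of the transport kinesins, and the bars of the kinesin partners and adaptors and of the dynein genes lie to the right of both. The bar of the mitotic spindle partners lies between those of the mitotic and the transport kinesins.

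Genes that serve the transport motors were abundant too. Of 19 partners and adaptors 18 were detected, with a median of 51.3 TPM in replicate 1 and 54.1 TPM in replicate 2. Fez1, an adaptor of Kif5 motors, had 528 and 487 TPM, Arl8a, a small GTPase that recruits kinesins to vesicles, had 192 and 194 TPM, and Mapk8ip1, a scaffold that binds light chains, had 71.1 and 87.0 TPM. Kif1bp itself had 51.3 and 54.1 TPM, and the light chain Klc3 was lowest with 0.94 and 0.96 TPM. All 20 genes of the opposing motor, cytoplasmic dynein, and its cofactor dynactin were detected, with a median of 92.3 and 92.7 TPM. Their highest members were the light chains Dynll1 with 1139.7 and 1098 TPM, Dynlt1b, which has near-identical copies and is uncertain, with 912 and 869 TPM, and Dynlrb1 with 507 and 520.4 TPM, and the dynactin subunit Dctn3 with 227 and 211 TPM, while the intermediate chain Dync1i1 was lowest with 4.50 and 4.61 TPM. The neuronal kinesin Kifc2 had 15.9 TPM in replicate 1 and 15.8 TPM in replicate 2, Kifc3 had 9.90 and 10.1 TPM, and Stard9 had 4.88 and 5.86 TPM.

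The order at the top of the transport list depended on which transcripts were counted. A gene's TPM is a sum over its annotated transcripts, and a few reads on a short fragment add much TPM. For Kif1a, the transcript Kif1a-206, a partial coding fragment of 528 nt, took 49.97% of the gene's TPM in replicate 1 and 45.7% in replicate 2. The same transcript held 9.82% and 7.61% of the gene's reads. The full-length Kif1a-204, of 8206 nt and 1697 residues, held 57.7% and 65.5% of the reads but 15.6% and 20.8% of the TPM. The noncoding Kif1a-208, of 570 nt, took another 23.5% and 22.6% of the TPM.

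Other high transport kinesins also gave much of their TPM to partial or noncoding transcripts, with varying shares of reads. Kif1b gave 34.4% of its TPM in replicate 1 and 32.8% in replicate 2 to Kif1b-205, a retained-intron fragment of 587 nt that held 2.85% and 2.73% of its reads. Its long coding form, Kif1b-203 with 1816 residues, took 48.4% and 47.4%, and the short form, Kif1b-201 with 1150 residues, took 9.47% and 9.42%. The long form thus exceeded the short form in both libraries. Kif3a gave 33.8% and 32% to Kif3a-206, a 770 nt transcript annotated for nonsense-mediated decay that held 15.1% and 12.8% of its reads, and 22.4% and 26.4% to Kif3a-203, which encodes 701 residues. Kif5b gave 54.6% and 53.7% to Kif5b-202, a partial coding transcript of 2006 nt that held 30.3% of its reads in each library, and 39.9% and 38.9% to the complete Kif5b-201.

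Kif5c and Kif5a were free of this. Kif5c gave 99.7% of its TPM to complete coding transcripts in both libraries, and Kif5a, Kif3c, Kif21a and Kif3b gave 100% each. Kif5a, Kif3c and Kif3b have 1 listed transcript each and Kif21a only complete ones, so their 100% is fixed by the annotation. Counting only transcripts with a complete coding sequence, Kif5c led with 147 TPM in replicate 1 and 142 TPM in replicate 2. Kif3a followed with 96.4 and 89.8 TPM, Kif1b with 75.4 and 69.1 TPM, Kif1a with 69.3 and 65.4 TPM, Kif5a with 61.2 and 55.2 TPM, and Kif5b with 48.1 and 43.2 TPM. Reads divided by the longest transcript put the same 4 genes first, with 92.4 and 93.3 reads per kilobase, scaled to depth, for Kif5c, 67.1 and 60.5 for Kif3a, 47.9 and 46.4 for Kif1b and 44.5 and 43.4 for Kif1a.

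**Figure D4:**
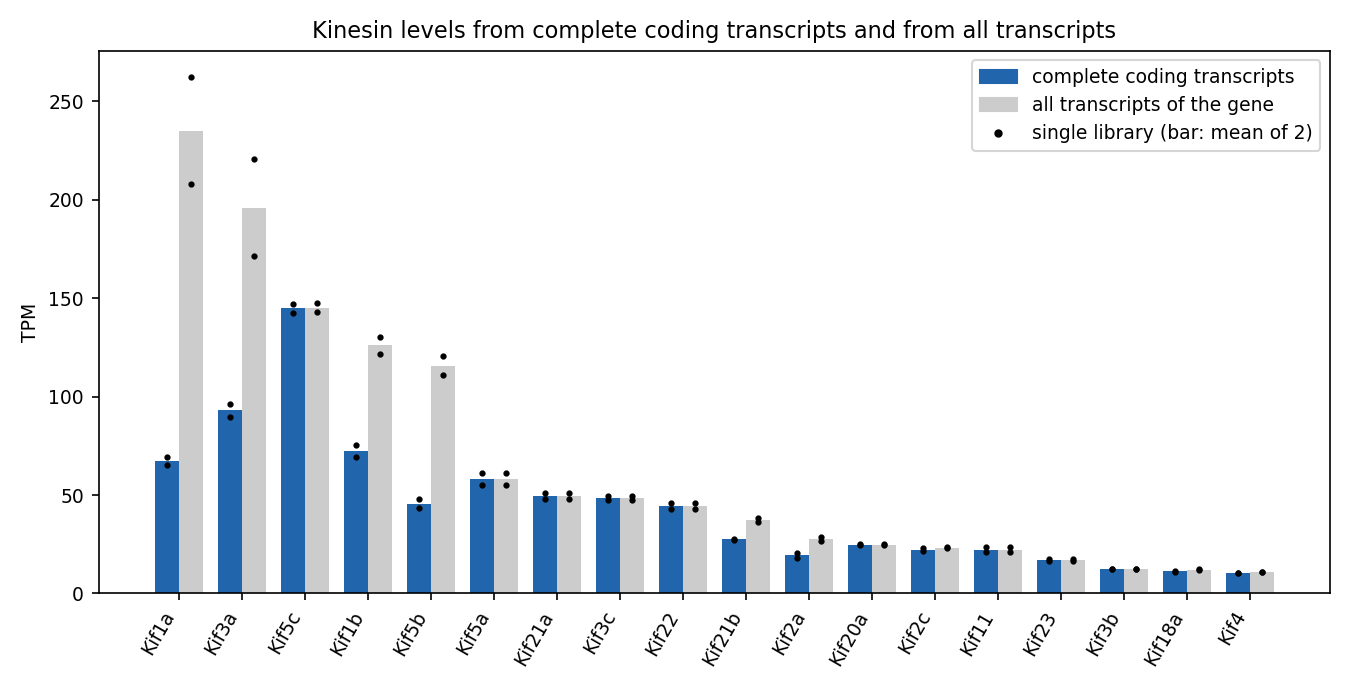
TPM of the kinesin motors with a mean of at least 10 TPM, counted from complete coding transcripts (blue) and from all transcripts of the gene (grey), as bars at the mean of the 2 libraries with a dot for each library. Kif1a, Kif3a, Kif1b and Kif5b lose much of their bar when short and partial transcripts are left out, and Kif5c then stands highest.

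Most mitotic kinesins were little touched by this choice. Over 11 detected mitotic kinesins the median share of TPM from complete coding transcripts was 100% in both libraries, and 0 were under 50% in both. Kif11, Kif15, Kif20b, Kif22 and Kif23 have 1 listed transcript each, and Kif20a has only complete ones. Their 100%, and with it the median, is therefore fixed by the annotation. The lowest shares were those of Kif14, with 56.0% in replicate 1 and 64.8% in replicate 2, and Kif18b, with 85.0% and 68.1%. Among detected transport kinesins 3 of 15 were under 50% in both libraries (Kif1a, Kif5b and Kif17). Among detected cilium kinesins 2 of 4 were (Kif24 and Kif6), against 11.9% of all detected protein-coding genes. Counted this way the mitotic share of motor TPM was 20.7% in each library and the transport share 75.0% and 74.6%. The difference of medians, mitotic minus transport, was -2.10 in replicate 1 and -1.99 in replicate 2, and 8 of 15 transport kinesins still lay above the highest mitotic kinesin.

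Related motors were compared within each library in 16 pairs, each written with the gene of higher TPM first, so only the sizes and the changes of direction between ways of counting are informative. Kif1a exceeded Kif1b by 0.89 ± 0.17 on the log2 scale, but the ratio was -0.10 ± 0.03 over complete coding transcripts. Kif5b exceeded Kif5a by 0.99 ± 0.02, and the ratio was -0.35 over complete coding transcripts and 0.19 over the longest transcript. Kif2a, a microtubule depolymeriser of neurons and spindles, exceeded its mitotic relative Kif2c by 0.24 ± 0.04, with -0.19 over complete coding transcripts (n = 2 throughout). The direction of these 3 pairs is therefore not settled by the gene-level values.

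The pairs named next kept their direction under all 3 ways of counting. Kif5c over Kif5b was 0.33 ± 0.05 and became 1.67 over complete coding transcripts. Kif20a over Kif20b was 1.51 ± 0.10, Kif18a over Kif18b 1.69 ± 0.13, Kif13a over Kif13b 1.64 ± 0.07 and Kif21a over Kif21b 0.41 ± 0.13. Kif1a over Kif1c was 7.29 ± 0.58, or 5.50 over complete coding transcripts. Kif3a over Kif3b became 2.89, and Kif3a over Kif3c 0.94, when partial transcripts were left out.

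The kinesins of the cilium list were low. Kinesin-2 motors, of which Kif3a is used in cilia too, were counted as transport kinesins and are not among them. Kif24, which restrains cilium formation, had 4.21 TPM in replicate 1 and 4.93 TPM in replicate 2. Kif7, which organises the ciliary tip and controls Hedgehog signalling, had 1.79 and 2.32 TPM, and its relative Kif27 had 0.79 and 0.85 TPM. Kif6 had 2.88 and 1.88 TPM and Kif9, a motor of motile cilia, 1.77 and 1.75 TPM. Kif19a, which limits the length of motile cilia, had 0.27 and 0.92 TPM from 11 and 24 reads. Of 6 motile cilium markers 5 were detected, and their regulator Foxj1 had 5.04 TPM in replicate 1 and 9.71 TPM in replicate 2.

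Among the other kinesins only Kif2a was abundant, with 28.7 TPM in replicate 1 and 26.5 TPM in replicate 2. Kif26a, an atypical kinesin that binds microtubules without moving, had 5.72 and 8.95 TPM, and Kif26b had 4.39 and 4.45 TPM. Kif12, known from the kidney, had 4 reads in replicate 1 and 0 in replicate 2, and Kif28 had 1 and 4 reads, too few to describe.

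The replicates were close for kinesin genes. After TMM scaling (edgeR), 0 of the 35 members whose mean count reached 50 lay 2-fold or more apart, against 0.724% of 14366 genes. With 1 library on each side no p-value exists for these ratios. Without the count minimum, Kif12 and Kif28 passed 2-fold on at most 4 reads each, against 19.8% of genes. At a 1.5-fold rule the count was 1, Kif26a, against 3.31% of genes. Kif26a was 1.61-fold higher in replicate 2, with an exact 95% interval of 1.48 to 1.76 that covers counting error only. Kif7 was 1.33-fold higher (1.09 to 1.63) and Kif1c 1.26-fold higher (1.02 to 1.58), while Kif3a stood at 0.892-fold (0.863 to 0.922). The median absolute log2 ratio was 0.10 for members and 0.10 for all genes, so the kinesins varied about as much as genes in general.

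By role, the median log2 ratio of replicate 2 over replicate 1 was -0.04 for mitotic kinesins, with 3 of 11 above 0 (Kif20b, Kif4 and Kif20a), and -0.01 for transport kinesins, with 6 of 15 above 0. Over all genes 50.9% were above 0. For the 5 cilium kinesins with enough reads, all but Kif19a, it was 0.16 and 5 of 5 were above 0. The 95% counting intervals of Kif6 (0.841 to 1.55-fold), Kif9 (0.785 to 1.33), Kif24 (0.940 to 1.30) and Kif27 (0.817 to 1.55) included equal levels. In TPM, Kif6 and Kif9 were lower in replicate 2. Motile cilium markers had 6 of 6 above 0 on the log2 ratio scale, with a median of 0.20 and Foxj1 highest at 0.99. Midbrain markers had 5 of 5 above 0, with a median of 0.41 and Wnt1 highest at 1.08. Erythroid and endothelial markers each had 6 of 6 above 0, microglial markers 4 of 6, progenitor markers 5 of 8 and neuron markers 1 of 10. The part of these differences in the cilium kinesin values was not tested.

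**Figure D5:**
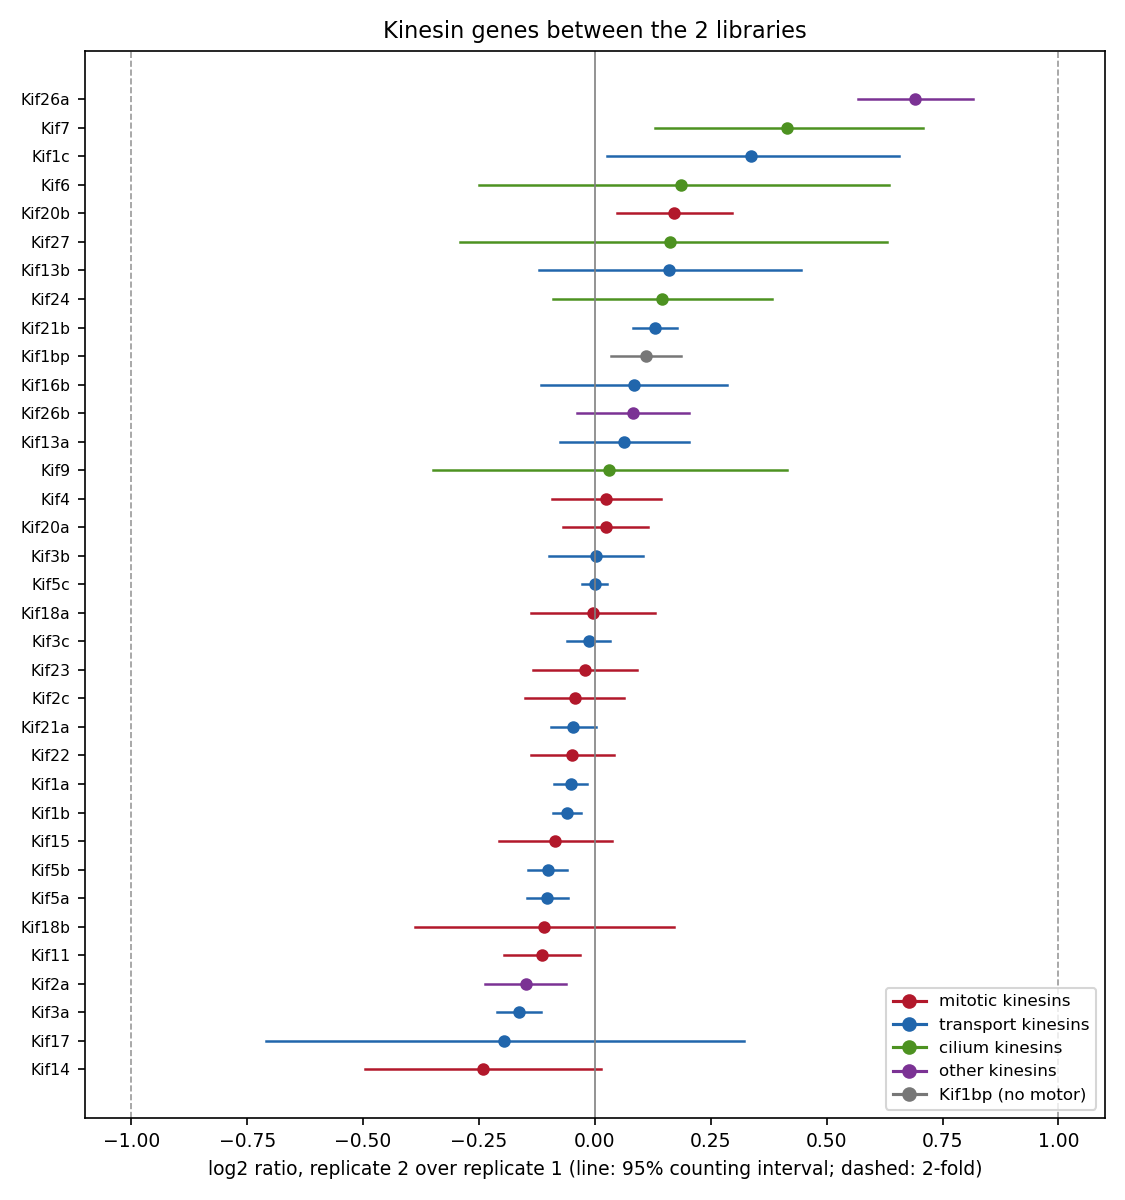
Log2 ratio of replicate 2 over replicate 1 for the 35 kinesin genes whose mean count reached 50, with lines for the 95% counting interval and dashed lines at 2-fold, coloured by role. All points lie inside the dashed lines, and Kif26a lies farthest out at 1.61-fold.

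Most members kept their leading transcript, the one with the largest share of the gene's TPM. Of 24 detected members with at least 2 transcripts 23 had the same one in both libraries, against 91.0% of 9469 protein-coding genes. The exception was Kif7, which gave Kif7-201 56.2% in replicate 1 and 11.2% in replicate 2, and Kif7-202 0% and 52.9%. These transcripts have nearly equal lengths, 4521 and 4524 nt, and encode 1347 and 1348 residues. Kif21a, by contrast, divided its TPM stably, with 61.6% and 59.4% for Kif21a-204, 19.9% and 22.3% for Kif21a-205, and 15.9% in both for Kif21a-202.

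Some kinesin genes overlap genes on the other strand. Exons of 10 members overlap a gene on the opposite strand, and 8 members have fractional counts, among them Kif20a, Kif4, Kif5b and Kif2a. In 6 of the 8 the counts of the member and its opposite-strand partner add up to whole numbers, within 0.005, in both libraries. For Kif20a these were 1728.84 reads beside 6703.16 for Cdc23 in replicate 1, and for Kif4 they were 1039.92 beside 2223.08 for Pdzd11. The exceptions were Kif2a with Dimt1 and Kif3c with 1110002L01Rik. How reads in the overlaps were assigned is not stated, and the levels of these 8 genes are uncertain to that extent.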

How the data were processed

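For each library the authors deposited gene and transcript tables, made on mm10 with GENCODE M4 per their accompanying text. The labels list an Ambion mirVana extraction and a SMARTer ultra-low kit manual. Per the file headers, the expected counts are estimated reads and can be fractional. TPM as deposited is scaled for length to one common total in which spike-ins are included. FPKM as deposited is scaled for length and for aligned reads. The percent column as deposited gives each transcript's share of its gene's TPM. No aligner, counting tool, version or use of strand is named in the sources used here, and near copies and overlapping genes are uncertain.

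Symbols, types, coding status and positions came from GENCODE M21 on GRCm38 (42462 of 43346 IDs matched), and 157 of 158 member transcripts matched. Of these, 137 had the same length in M21 as in the deposited tables. For the rest, coding status and residues come from an M21 form of a different length from the one counted. A transcript counted as complete coding where M21 types it as protein-coding and marks neither end as incomplete. Levels were compared on log2(TPM + 0.1), which understates ratios of low genes. Ratios between libraries came from rounded expected counts scaled by the TMM method of edgeR 4.0.16 (R 4.3.3) without spike-ins, at a mean count of at least 50. Alternatives used DESeq2 1.42.0 size factors, library totals, other pseudocounts, FPKM and other thresholds. Exact intervals cover counting error only, since the reads are not independent molecules, and so does the limit of 3 counts for a gene at 0. Depth was 32151659 reads in replicate 1 and 41915240 in replicate 2. The ratio procedure was tested on simulated data.

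Members, lists, pairs and motifs were chosen with earlier results of these data known. The midbrain and Hox lists, the complete coding and longest-transcript counts and the narrower promoter window were added after the data were seen. All members are named. Other lists are represented by at most their 4 highest genes, their lowest gene and members of counts of 5 or fewer, and cell type marker lists mainly by counts. Cit, Prc1 and Kifap3 were named outside this rule as direct partners of members. Protein sequences were not used here.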

Additional observations from a re-analysis of the deposited data

Results flagged for a closer look

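Reads were found in entries that the comparisons above do not use. Kif16bos, an antisense gene near Kif16b (chr2:142902965-142903572 on GRCm38), had 6 reads in replicate 1 and 0 in replicate 2. The first value is above the limit of 3 counts that a count of 0 allows, and no control sample exists to set it against. The kinesin pseudogenes Kif22-ps and Kif4-ps had 0 reads in both libraries. The spike-ins, a deliberate addition, had 715022 reads in replicate 1 and 1699859 reads in replicate 2.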

How the results depend on the processing

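The difference of medians, mitotic minus transport, kept its sign under all 10 alternatives. Its value was -2.07 as reported, -1.99 with a pseudocount of 1 or over detected members only, -2.20 with reads over the longest transcript, -1.54 with means and -2.60 over the example genes, and each library alone gave -2.05 and -2.09. Pairs turned round for Kif1a over Kif1b (-0.10 over complete coding transcripts and -0.10 over the longest transcript), Kif5b over Kif5a (-0.35 over complete coding transcripts) and Kif2a over Kif2c (-0.19 and -0.32). The gene of higher TPM was also the higher in 13 of 16 pairs over complete coding transcripts and in 14 over the longest transcript. Detection covered 27 to 35 members under other thresholds. With no count filter 2 members passed 2-fold, Kif12 with 4 reads and 0 reads and Kif28 with 1 and 4, against 19.8% of genes, and the 1.5-fold rule gave 1. At a TPM of at least 5, 14 of 14 members kept their leading transcript, since fewer genes qualify. The mean level of 18 of 39 members moved by more than 1 SD over complete coding transcripts. No paired analysis was possible because the labels give 1 group. With 2 libraries an SD is itself poorly known, and leaving 1 out leaves no ratio between libraries. Genes with few reads, such as Kif19a and Kif17, are limited by depth.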
